A study of Mus musculus with 16 samples.

Results

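The livers of 4 male mice homozygous for the Pts-R15C-ki allele were compared with those of 4 wild-type males, across all transcripts detected in liver. The 8 liver arrays were chosen by their titles from 16 arrays in all. The other 8 held brain, and arrays of the same genotype and replicate number were taken as 1 mouse. All 8 mice were C57BL/6J and 17 weeks old, and each array held total RNA of 1 animal on a single-colour Illumina bead array. The allele carries R15C, a knocked-in change of Pts, on both copies in the homozygous mice and on neither copy in the wild-type mice. Whether the wild-type mice were littermates, and which cells the knock-in was made in, is not given in the sources used here.

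Pts encodes pyruvoyl-tetrahydropterin synthase, which makes an intermediate of tetrahydrobiopterin. Tetrahydrobiopterin is the cofactor of phenylalanine hydroxylase, which in liver turns phenylalanine into tyrosine, and serves nitric oxide synthases and alkylglycerol monooxygenase as well. Hepatocytes, which make most of the liver's RNA, secrete plasma proteins, oxidize and export fat, store glycogen and clear foreign compounds. Macrophages, endothelium and stellate cells share the tissue with them.

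Signals are given on the log2 scale after background correction and quantile normalization within liver, so 1 unit is a doubling, and a change is the homozygous mean minus the wild-type mean. Testing required a detection p-value below 0.05 on 4 or more of the 8 livers, which kept 11955 probes of 8304 genes. A gene is said to have risen or fallen only where its adjusted p in limma was under 0.05. By this rule 108 probes were called, 0.903% of those tested. Of these, 44 rose (0.368%) and 64 fell (0.535%) in homozygous livers. They stood for 94 named genes, 39 that rose and 55 that fell, and 7 probes without a gene symbol. With 1 probe per gene, the median change over all 8304 genes was 0.02, and 3906 genes (47.0%) lay below 0.

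**Figure D1:**
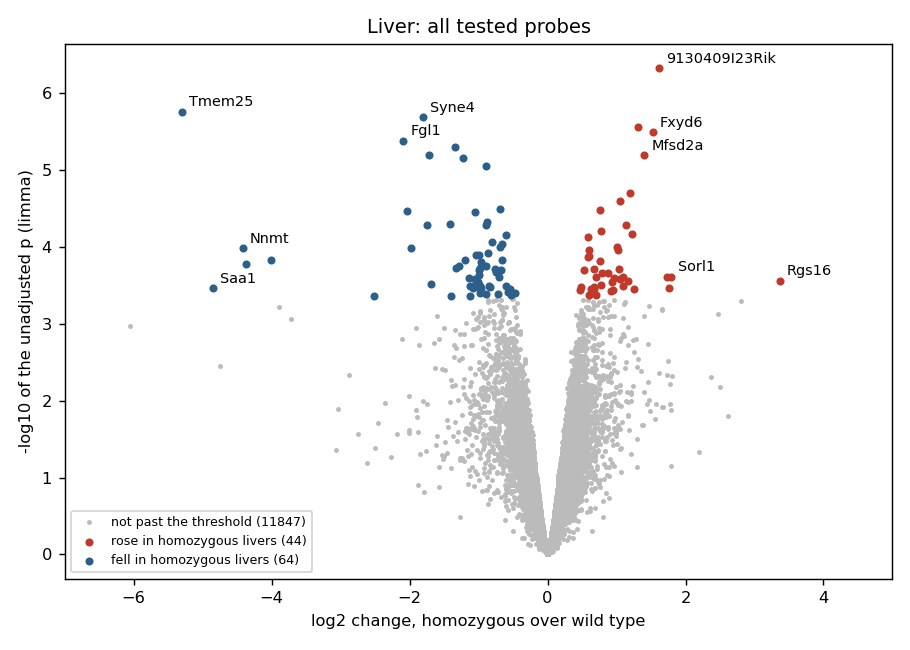
Each point is 1 of the 11955 tested liver probes, with the log2 change (homozygous over wild type) on the horizontal axis and -log10 of the unadjusted limma p on the vertical axis. The 44 probes that rose lie on the right and the 64 that fell on the left, where a probe of Tmem25 is the farthest from 0 of the called probes.

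The wild-type arrays were not alike. On the first principal component, which held 62.2% of the variance, homozygous mice lay between 17.0 and 20.9, against -43.8 and -46.4 for wild-type mice 1 and 2 and 9.72 and 2.79 for wild-type mice 3 and 4. Between 11785 and 12315 probes were detected per array. Results were therefore also computed without wild-type mice 1 and 2, a fit chosen after these arrays were seen to stand apart. That fit called 23 probes (0.192%), 20 of them among the 108. All 108 kept their sign, which was fixed in advance, because the groups overlapped for none of them. A named called gene for which nothing from that fit is given below did not pass in it (adjusted p up to 0.17). The median size of change of the 108 probes was 0.99 with all mice and 0.82 without those 2 mice. Leaving out 1 array at a time moved the count of calls widely. It was 14, 70, 10 and 9 without homozygous mice 1, 2, 3 and 4, and 12, 19, 944 and 168 without wild-type mice 1, 2, 3 and 4. Of the 108 probes, 9 passed in all 8 of these fits: those of 9130409I23Rik, Fgl1, Fxyd6, Ifi27l2a, Syne4, Nxpe2, 1 probe each of Alg9 and Tmem25, and 1 unnamed probe.

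Pts itself was higher in homozygous livers on both of its probes, and neither probe passed. The brighter probe read 9.54, 9.71, 9.58 and 9.61 in homozygous mice 1 to 4, against 8.98, 8.77, 9.13 and 9.23 in wild-type mice 1 to 4. The dimmer probe read 7.46, 7.79, 7.41 and 7.77 in homozygous mice, against 6.74, 6.12, 7.04 and 6.93 in wild-type mice. The groups did not overlap on either probe. The changes were 0.58 (SE 0.12, adjusted p = 0.054) and 0.90 (SE 0.20, adjusted p = 0.0624), and the exact permutation p of 0.0286 was the smallest that 4 against 4 mice allow (two-sided). Groups were as cleanly apart on 13.0% of the tested probes, and with all 16 arrays in 1 fit, which changes the normalization and the shared variance, both Pts probes passed (0.53, adjusted p = 0.0356, and 0.84, adjusted p = 0.0247). An expression probe does not read the R15C change, so the level of Pts does not check the genotype labels. Of the 7 measured genes of tetrahydrobiopterin synthesis and recycling 0 passed, with a median of 0.27, or 0.08 without wild-type mice 1 and 2, and with Gchfr, the feedback regulator of GTP cyclohydrolase, at 0.40 and Qdpr, the recycling dihydropteridine reductase, at 0.29. Against wild-type mice 3 and 4 alone, Gchfr was at 0.16 and Qdpr at -0.12.

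The tissue matched its label. All 9 hepatocyte markers on the array were detected in both groups, and the transthyretin gene Ttr averaged 14.68 ± 0.09 in homozygous livers and 14.68 ± 0.10 in wild-type livers (SD, n = 4 each). The probe of the albumin gene Alb was dim in all 8 livers, between 5.41 and 5.60 in homozygous mice and between 4.76 and 5.46 in wild-type mice, although albumin is an abundant liver transcript. Of the 9 hepatocyte markers tested, 0 passed, with a median of 0.09, or 0.08 without wild-type mice 1 and 2. Markers of other tissues were detected in part: 3 of 9 of exocrine pancreas, 3 of 6 of bile duct, and of adipose tissue 2 of 7 in homozygous and 1 of 7 in wild-type livers. Among them Amy2a5, Cela1, Cela2a, Krt23, Sox9 and Car3 were detected on all 8 arrays, while 10 of 12 lymphocyte markers were detected on no liver array.

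Acute phase genes, which hepatocytes transcribe after inflammatory cytokines reach them, stood lower in homozygous livers. Of 25 genes tested, 0 rose, 5 fell and 24 had a change below 0, with a median of -1.08, against 47.0% of all tested genes below 0 and a median of 0.02. A gene counts as called here if any of its probes passed, while medians use the brightest probe of each gene. The 5 that fell were Saa1, Saa2, Fgl1, Orm1 and Hp. The whole list moved with wild-type mice 1 and 2: its mean deviation from the average liver was -0.70, -0.90, -0.85 and -0.98 in homozygous mice 1 to 4, against 1.77, 1.83, -0.29 and 0.12 in wild-type mice 1 to 4. Against wild-type mice 3 and 4 alone, the median was -0.33 and 21 of 25 genes lay below 0.

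The promoters of Saa1 and Saa2 are shown because these genes had the largest changes among the 5 and are near copies of each other. Both windows, 250 bases before to 50 after the start, are from RefSeq's GRCm38.p6: Saa1 at chr7:46742931-46743230 on the minus strand and Saa2 at chr7:46751583-46751882 on the plus strand. Capitals mark TTGCNNAA, a short form of the site of C/EBP factors, searched on both strands.
Saa1: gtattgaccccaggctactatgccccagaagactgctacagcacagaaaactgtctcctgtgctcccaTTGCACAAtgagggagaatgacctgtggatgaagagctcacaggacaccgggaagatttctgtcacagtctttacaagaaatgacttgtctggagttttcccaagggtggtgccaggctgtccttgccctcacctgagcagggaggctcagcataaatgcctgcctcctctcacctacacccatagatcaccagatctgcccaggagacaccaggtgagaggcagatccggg
Saa2: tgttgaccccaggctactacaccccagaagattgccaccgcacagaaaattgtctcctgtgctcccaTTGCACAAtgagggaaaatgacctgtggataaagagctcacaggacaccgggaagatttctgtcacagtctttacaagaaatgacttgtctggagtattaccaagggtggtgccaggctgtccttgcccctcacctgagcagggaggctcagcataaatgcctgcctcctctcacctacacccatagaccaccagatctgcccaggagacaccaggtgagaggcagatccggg
The 2 windows were identical at 287 of 301 aligned columns (95.3%), and both held the motif once as TTGCACAA. The motif was present for 13 of 23 acute phase genes with a window (56.5%) and for 9 of 40 genes with a window that fell (22.5%). It was present for 4 of 33 with a window that rose (12.1%), and in 3547 of the 32851 windows searched (10.8%). A gene counted where any of its windows held the motif, while the last share counts each window. A match describes the letters only.

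Saa1, a serum amyloid A gene, read 5.29, 5.31, 5.20 and 5.02 in homozygous mice 1 to 4, against 11.67, 11.89, 7.06 and 9.60 in wild-type mice 1 to 4. Saa2, its neighbour and near copy, read 5.18, 4.98, 5.01 and 4.59 in homozygous mice, against 10.78, 10.71, 6.95 and 8.80 in wild-type mice. All homozygous livers lay near the floor of the array, and wild-type mouse 3 was the lowest of its group for both genes. Saa1 fell by 4.85 (SE 0.90, adjusted p = 0.0453) and Saa2 fell by 4.37 (SE 0.73, adjusted p = 0.0442). Against wild-type mice 3 and 4 alone, Saa2 still passed at -2.93 (adjusted p = 0.0401) and Saa1 did not at -3.12 (adjusted p = 0.0755). Because the genes are so alike, signal of one may be read by the probe of the other, and the pair is uncertain as 2 separate changes. Saa1 passed in 1 and Saa2 in 2 of the 8 fits that left out 1 array.

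Fgl1, a fibrinogen-like protein secreted by hepatocytes, was the member of this list that passed under every left-out array. It read 11.08, 10.56, 10.81 and 10.96 in homozygous mice 1 to 4, against 13.46, 13.19, 12.38 and 12.74 in wild-type mice 1 to 4. The groups were well apart, also for wild-type mice 3 and 4. Fgl1 fell by 2.09 (SE 0.22, adjusted p = 0.00843), read -1.71 without wild-type mice 1 and 2 (adjusted p = 0.00578), and passed in all 8 fits that left out 1 array. Orm1, an orosomucoid with near copies in the genome, fell by 1.08 (SE 0.20, adjusted p = 0.0453), and Hp, the haemoglobin scavenger haptoglobin, fell by 0.98 (SE 0.18, adjusted p = 0.0453). Hp rested on 1 of 3 probes: the others read -0.86 (adjusted p = 0.0507) and -0.18 (adjusted p = 0.26), the last of them averaging 14.49 in homozygous and 14.67 in wild-type livers. Orm1 and Hp each passed in 1 of the 8 fits that left out 1 array, and against wild-type mice 3 and 4 alone they were at -0.87 (adjusted p = 0.161) and -0.66 (adjusted p = 0.0973).

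Other large changes of the list did not pass. Lcn2, the iron-binding lipocalin 2, read 6.21, 6.21, 6.74 and 5.01 in homozygous mice 1 to 4, against 14.83, 14.89, 8.86 and 9.80 in wild-type mice 1 to 4. Its groups did not overlap, but wild-type mice 1 and 2 stood far above the other 2 wild-type mice, and its change of -6.06 had an SE of 1.31 (adjusted p = 0.061). Against wild-type mice 3 and 4 alone, Lcn2 was at -3.29 and passed (adjusted p = 0.0285). Orm2 was at -3.72 (adjusted p = 0.0575). Of the complement and clotting genes, most of which hepatocytes also secrete, 1 of 32 was called: Hc, complement component 5, fell by 0.74 (SE 0.13, adjusted p = 0.0453). The median of those 32 genes was -0.03, or 0.01 without wild-type mice 1 and 2.

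**Figure D2:**
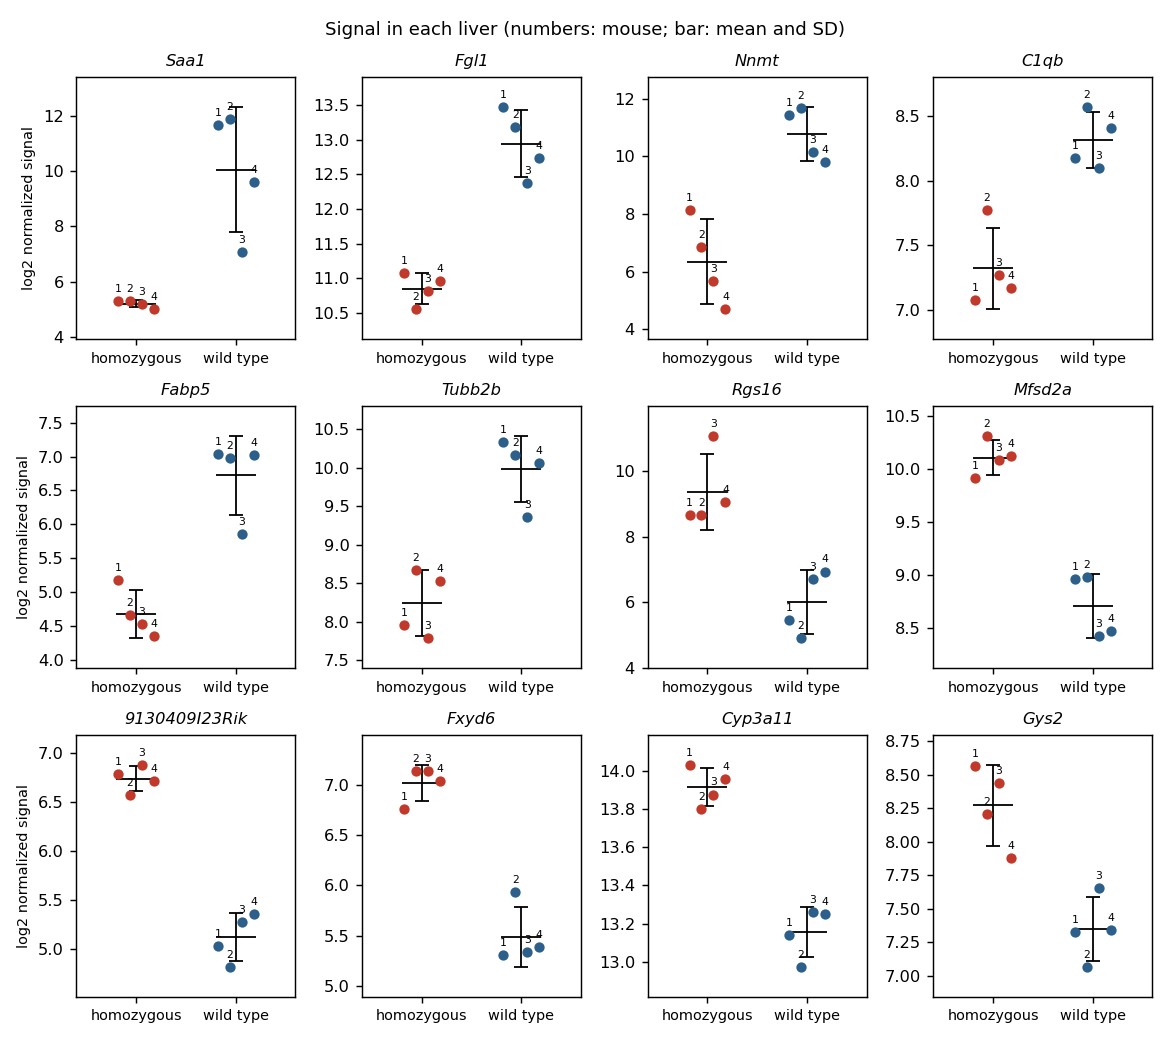
Log2 normalized signal of 12 called genes in each liver, homozygous mice on the left of each panel and wild-type mice on the right; bars give the mean and SD of 4 mice. The groups do not overlap in any panel, and for Saa1 wild-type mice 1 and 2 lie far above wild-type mice 3 and 4, while for Fxyd6 wild-type mouse 2 is the one nearest to the homozygous mice.

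Markers of liver macrophages were lower in homozygous livers, with all 4 wild-type mice on the same side. Of 15 markers tested, 0 rose, 4 fell (Vsig4, C1qb, C1qc and Lyz2) and all 15 had a change below 0, with a median of -0.57. Over all tested probes 0.535% fell, and 47.0% of all tested genes were below 0. The mean deviation of the list was -0.42, -0.07, -0.35 and -0.37 in homozygous mice 1 to 4, against 0.24, 0.36, 0.19 and 0.42 in wild-type mice 1 to 4, so wild-type mice 3 and 4 were as high as wild-type mice 1 and 2. With those 2 wild-type mice left out the median was -0.59 and 14 of 15 markers lay below 0. For 11 of the 15 every homozygous liver was below every wild-type liver. This was so for 584 of all 8304 genes with 1 probe each, and for 744 of all 11955 tested probes (6.22%). In whole liver, fewer cells of a type and less RNA per cell cannot be told apart.

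Vsig4, a complement receptor of resident liver macrophages, read 7.52, 7.89, 7.18 and 7.45 in homozygous mice 1 to 4, against 8.38, 8.52, 8.41 and 8.89 in wild-type mice 1 to 4. C1qb, a chain of complement C1q made mainly by macrophages, read 7.07, 7.77, 7.27 and 7.16 in homozygous mice, against 8.18, 8.57, 8.10 and 8.41 in wild-type mice. Neither gene's groups overlapped, and homozygous mouse 2 was the highest of its group for both. Vsig4 fell by 1.04 (SE 0.17, adjusted p = 0.0418), C1qb fell by 0.99 (SE 0.17, adjusted p = 0.0442) and C1qc, another C1q chain, fell by 1.05 (SE 0.19, adjusted p = 0.0453). Leaving out wild-type mice 1 and 2, these 3 genes were at -1.14, -0.93 and -0.99, and the adjusted p ran from 0.0799 to 0.136. Lyz1 read 9.29, 9.58, 9.40 and 9.15 in homozygous mice, against 10.40, 10.36, 10.13 and 10.73 in wild-type mice. The lysozyme genes Lyz1 and Lyz2 fell by 1.05 (SE 0.15, adjusted p = 0.0251) and by 0.96 (SE 0.18, adjusted p = 0.0453). They too are near copies, and their probes may not separate them. The lysozyme genes without wild-type mice 1 and 2 were at -1.08 (adjusted p = 0.0713) and -0.91 (adjusted p = 0.144). Markers that did not pass included the Kupffer cell lectin Clec4f at -0.67, which passed with those 2 mice left out (-0.89, adjusted p = 0.0225), and the haemoglobin receptor Cd163 at -0.93 (adjusted p = 0.0608).

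Other called genes are also known from myeloid cells. Wfdc17, a small secreted protein of macrophages, read 5.78, 6.11, 5.78 and 5.80 in homozygous mice 1 to 4, against 6.81, 6.44, 6.87 and 7.24 in wild-type mice 1 to 4. It fell by 0.97 (SE 0.17, adjusted p = 0.0442) and also passed without wild-type mice 1 and 2 (-1.19, adjusted p = 0.0262). Lgals3, the galectin of activated macrophages, fell by 1.40 (SE 0.27), Fcgr3, an Fc receptor, fell by 0.81 (SE 0.12), and Coro1a, an actin regulator of leukocytes, fell by 0.66 (SE 0.10). Trem2, a lipid-sensing receptor of macrophages, was detected on 0 homozygous and 4 wild-type arrays and was at least 1.22-fold lower. Only 3 neutrophil and monocyte genes could be tested: S100a8, a calprotectin subunit, fell by 2.51 (SE 0.48, adjusted p = 0.049) and the other 2 were at -0.26 and -0.27. Ngp, Camp, Ltf, Mpo, Mmp8, Cxcr2 and Ccr2, which define granulocytes and their precursors or monocytes, were detected on no liver array. S100a9 and Retnlg were detected on 0 homozygous and 3 wild-type arrays, and Elane on 0 and 1. The part of macrophage or neutrophil markers in the changes of other genes was not tested.

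Targets of PPARA, the nuclear receptor that switches on fat use in fasting, stood higher in homozygous livers. Of 14 tested, 1 rose (Mfsd2a), 0 fell and 12 had a change above 0, with a median of 0.61 that was 0.62 without wild-type mice 1 and 2. The 14 include the receptor gene Ppara itself, at 0.55, and the coactivator gene Ppargc1a, neither of which passed. For 8 of the 14 every homozygous liver was above every wild-type liver. This was so for 569 of all 8304 genes with 1 probe each, and for 805 of all 11955 tested probes (6.73%). The list's mean deviation was 0.21, 0.20, 0.60 and 0.58 in homozygous mice 1 to 4, against -0.18, -0.62, -0.40 and -0.38 in wild-type mice 1 to 4.

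Mfsd2a, a lysophosphatidylcholine transporter that fasting induces in mouse liver, read 9.91, 10.31, 10.09 and 10.12 in homozygous mice 1 to 4, against 8.96, 8.98, 8.43 and 8.47 in wild-type mice 1 to 4. Here wild-type mice 1 and 2 were the nearer pair to the homozygous mice. Mfsd2a rose by 1.40 (SE 0.16, adjusted p = 0.00854), was at 1.66 without wild-type mice 1 and 2 (adjusted p = 0.00237), and passed in 7 of the 8 fits that left out 1 array. Cyp4a14, a fatty acid omega-hydroxylase, read 12.05, 11.20, 13.14 and 13.31 in homozygous mice, against 10.91, 9.05, 9.67 and 10.18 in wild-type mice. Its groups did not overlap, but with a spread this wide the change of 2.47 (SE 0.51) missed the threshold (adjusted p = 0.0558). Ppargc1a, a coactivator of mitochondrial genes, was at 0.80 (SE 0.16, adjusted p = 0.0507). Pdk4, which slows glucose oxidation, was one of the 2 genes below 0, at -0.60, or -1.28 with wild-type mice 1 and 2 left out (adjusted p = 0.105).

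Enzymes of fat oxidation had smaller changes. Of 16 fatty acid oxidation genes, 0 passed and 15 had a change above 0, with a median of 0.22 and Ehhadh, the peroxisomal bifunctional enzyme, at 0.90. Of 26 oxidative phosphorylation genes, 0 passed and 24 were above 0, with a median of 0.17 and Sdhb, a subunit of succinate dehydrogenase, at 0.66. These medians were 0.16 and 0.11 without wild-type mice 1 and 2. Of the 15 fatty acid synthesis genes 0 passed, and the median was 0.20 with all mice and -0.08 without wild-type mice 1 and 2. Of the 18 cholesterol genes 0 passed and 13 were below 0, with a median of -0.15, or -0.29 without wild-type mice 1 and 2.

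Called genes of lipid handling lay in both directions. Apoa4, an apolipoprotein that liver makes in fasting, read 12.04, 12.64, 12.71 and 12.52 in homozygous mice 1 to 4, against 11.12, 11.51, 9.88 and 10.36 in wild-type mice 1 to 4. It rose by 1.76 (SE 0.32, adjusted p = 0.0453), and by 2.36 without wild-type mice 1 and 2 (adjusted p = 0.00284). Fabp5, a fatty acid binding protein of macrophages, endothelium and other cells, read 5.18, 4.66, 4.52 and 4.35 in homozygous mice, against 7.03, 6.97, 5.85 and 7.02 in wild-type mice. It was detected on 1 homozygous and 4 wild-type arrays and fell by 2.04 (SE 0.28, adjusted p = 0.0251), or was at -1.76 without wild-type mice 1 and 2 (adjusted p = 0.0799). Pex14, a docking protein for import into peroxisomes, read 8.93, 8.92, 9.06 and 9.02 in homozygous mice, against 7.64, 8.42, 8.04 and 7.75 in wild-type mice. The homozygous livers were close to each other for Pex14. It rose by 1.02 (SE 0.16, adjusted p = 0.0392) and also passed without wild-type mice 1 and 2 (1.09, adjusted p = 0.014). Of 17 lipoprotein genes, 2 rose (Apoa4 and the sorting receptor Sorl1) and 0 fell, while 0.368% of all tested probes rose. Both genes that rose lie within 10 Mb of Pts, where 14.7% of tested probes passed, against 0.753% of the others. Apoc2, the activator of lipoprotein lipase, was at -2.01 and did not pass.

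Among genes of glucose use, Gys2 rose and Hk2 and Pkm fell. Gys2, the glycogen synthase of liver, read 8.56, 8.21, 8.44 and 7.88 in homozygous mice 1 to 4, against 7.33, 7.07, 7.66 and 7.34 in wild-type mice 1 to 4, and rose by 0.92 (SE 0.17, adjusted p = 0.0465), with 0.77 without wild-type mice 1 and 2 (adjusted p = 0.152). Hk2, a hexokinase that healthy hepatocytes hardly express, read 4.94, 4.92, 4.96 and 4.75 in homozygous mice, against 5.81, 5.96, 5.70 and 5.66 in wild-type mice. It was dim in all 8 livers. Hk2 fell by 0.89 (SE 0.10, adjusted p = 0.00973) and passed without wild-type mice 1 and 2 (-0.79, adjusted p = 0.0413). Pkm, the pyruvate kinase of cells other than hepatocytes, fell by 1.04 (SE 0.19, adjusted p = 0.0453), and was at -1.05 without those 2 mice (adjusted p = 0.0985). The Pkm gene lies within 10 Mb of Pts. Over the 15 tested genes of the glucose list, which does not hold Hk2, 1 rose (Gys2), 1 fell (Pkm) and 14 were above 0. The median was 0.37, or 0.20 without wild-type mice 1 and 2. The gluconeogenic genes G6pc at 0.80 and Pck1 at 0.37 did not pass. With those 2 mice left out G6pc turned to -0.79 (adjusted p = 0.0605), and Pck1 was at 0.51.

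Enzymes and carriers that clear foreign compounds and bile acids were higher in homozygous livers more often than lower. Of 19 cytochrome P450 genes and their regulators 1 rose (Cyp3a11), 1 fell (Cyp2c70) and 17 had a change above 0, with a median of 0.32. Of 32 conjugation genes 2 rose (Gstt2 and Ces1e) and 28 were above 0, with a median of 0.36. Of 16 bile acid genes 1 rose (Slco1a4) and 14 were above 0, with a median of 0.32. Over all tested probes 0.368% rose and 0.535% fell, and 4398 of all 8304 genes were above 0. Wild-type mice 1 and 2 were the lowest livers on all 3 lists, at -0.52 and -0.67 for bile acid genes, where homozygous mice lay between 0.23 and 0.33 and wild-type mice 3 and 4 at 0.16 and -0.08. Leaving those 2 mice out gave medians of 0.13, 0.16 and 0.22. Cyp7a1, the rate-limiting enzyme of bile acid synthesis, was at 1.80 with all mice (adjusted p = 0.259) and at -0.08 without those 2 mice.

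Cyp3a11 is a main drug-metabolizing P450 of mouse liver, and its promoter is shown because it had the smallest adjusted p among the P450 genes. The window is RefSeq's, GRCm38.p6, chr5:145879805-145880104 on the minus strand. Capitals mark TGTTTAC, a form of the site of FOXA factors, and then CAAAGTCCA, a form of the site of HNF4 factors, searched on both strands.
Cyp3a11: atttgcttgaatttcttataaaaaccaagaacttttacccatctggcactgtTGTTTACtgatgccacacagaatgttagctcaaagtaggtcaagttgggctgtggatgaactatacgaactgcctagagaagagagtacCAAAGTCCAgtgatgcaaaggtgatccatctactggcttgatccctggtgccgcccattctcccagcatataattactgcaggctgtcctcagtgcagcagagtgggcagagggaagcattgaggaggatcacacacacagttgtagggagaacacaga
The HNF4 letters occurred in 0.475% of the 32851 windows searched and for 1 of 33 genes with a window that rose. The FOXA letters occurred in 3.65% of those windows and for 3 of those 33 genes. Cyp3a11 read 14.03, 13.80, 13.88 and 13.96 in homozygous mice 1 to 4, against 13.14, 12.97, 13.26 and 13.25 in wild-type mice 1 to 4. Both groups were tight and did not overlap. It rose by 0.76 (SE 0.10, adjusted p = 0.0251), and read 0.66 without wild-type mice 1 and 2 (adjusted p = 0.0713). Probes of P450 genes may read close paralogs.

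Slco1a4, an uptake carrier of bile acids and organic anions, read 8.34, 7.83, 8.29 and 8.29 in homozygous mice 1 to 4, against 6.64, 6.75, 7.04 and 7.41 in wild-type mice 1 to 4. Homozygous mouse 2 was the low one of its group and still lay above every wild-type mouse. Slco1a4 rose by 1.23 (SE 0.18, adjusted p = 0.0337), and was at 0.96 without wild-type mice 1 and 2 (adjusted p = 0.0799). Ces1e, a carboxylesterase, rose by 1.25 (SE 0.23, adjusted p = 0.0453) and Gstt2, a glutathione transferase, by 1.09 (SE 0.19, adjusted p = 0.0453). Ugt2a3, a glucuronosyltransferase outside the lists, rose by 0.63 (SE 0.12, adjusted p = 0.0455). Cyp2c70, which makes the muricholic acids of mouse bile, read 13.32, 12.97, 12.80 and 12.51 in homozygous mice, against 14.09, 14.06, 13.85 and 13.55 in wild-type mice. It ran against its list, and fell by 0.99 (SE 0.19, adjusted p = 0.0476).

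Rgs16, a regulator of G protein signalling whose liver transcript follows the daily cycle and feeding, had the largest change among the genes that rose. It read 8.67, 8.66, 11.07 and 9.06 in homozygous mice 1 to 4, against 5.45, 4.91, 6.71 and 6.94 in wild-type mice 1 to 4. Homozygous mouse 3 stood above the other homozygous mice, and wild-type mice 1 and 2 below the other 2. Rgs16 rose by 3.36 (SE 0.60, adjusted p = 0.0453), and was at 2.54 without wild-type mice 1 and 2 (adjusted p = 0.135). Of 6 output genes of the circadian clock, Rgs16 alone passed, 5 were above 0, and the median was 0.96, or 0.51 without wild-type mice 1 and 2. Dbp, a transcription factor driven by the clock, was at 2.50 and Nfil3, its antagonist, at -1.50. Of 11 core clock genes 0 passed, with a median of 0.23, or 0.33 without wild-type mice 1 and 2, and Arntl, an activator of the clock, at -1.28 (adjusted p = 0.066). The hour at which each mouse was killed is not given in the sources used here, and its part in these values was not tested.

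Heat shock genes, chaperones of the endoplasmic reticulum and glucocorticoid-responsive genes were mostly lower in homozygous livers. Over all tested probes 0.535% fell, and 47.0% of all tested genes were below 0. All 16 tested heat shock genes were below 0 with a median of -0.50, and 1 fell: Dnaja4, a co-chaperone, by 1.14 (SE 0.20, adjusted p = 0.0453). The Dnaja4 gene lies within 10 Mb of Pts. Of 16 chaperones and folding enzymes of the endoplasmic reticulum 0 passed and 14 were below 0, with a median of -0.57. Of 10 glucocorticoid-responsive genes 1 fell, Ddit4, an inhibitor of mTORC1 signalling, by 1.01 (SE 0.18, adjusted p = 0.0453), and the median was -0.93. With wild-type mice 1 and 2 left out, these 3 medians were -0.32, -0.13 and 0.08. The glucocorticoid list stood at -0.30, -0.47, -0.50 and -0.51 in homozygous mice 1 to 4, against 1.11, 1.32, -0.26 and -0.38 in wild-type mice 1 to 4, so wild-type mice 3 and 4 were within or near the homozygous range.

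Fos, an immediate early transcription factor, read 4.61, 4.64, 4.45 and 4.44 in homozygous mice 1 to 4, against 6.61, 5.77, 5.63 and 5.42 in wild-type mice 1 to 4. It was detected on 0 homozygous and 4 wild-type arrays and was at least 2.27-fold lower (adjusted p = 0.0442), also past the threshold without wild-type mice 1 and 2 (adjusted p = 0.0225). Of 7 immediate early genes tested, Fos alone passed and 6 were below 0, with a median of -1.13, or -0.22 without wild-type mice 1 and 2. In the integrated stress response, Trib3, a pseudokinase, rose by 1.03 (SE 0.18, adjusted p = 0.0442), while Atf4, a transcription factor that acts on it, fell by 1.12 (SE 0.20, adjusted p = 0.0453). No other gene of the 10 tested for that response passed. In that list 4 were above 0 and 6 below, with a median of -0.55, or -0.21 without wild-type mice 1 and 2. Redox defence genes did not stand lower: of 15 tested, 0 passed and 10 were above 0, with a median of 0.02. Klf2, a transcription factor of endothelium, rose by 0.71 (SE 0.14, adjusted p = 0.0489), and Gabarapl1, an autophagosome protein, rose by 1.10 (SE 0.20, adjusted p = 0.0453).

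**Figure D3:**
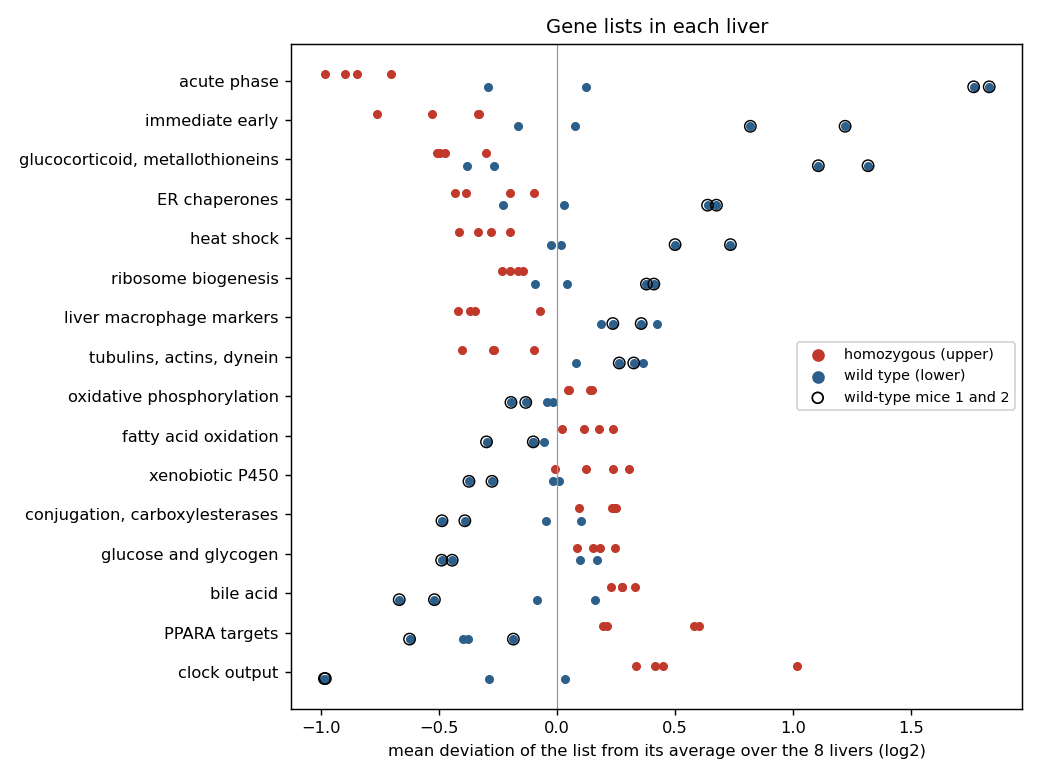
Mean deviation of each gene list from its average over the 8 livers (log2), with 1 point per mouse, homozygous above and wild type below in each line; black rings mark wild-type mice 1 and 2. Those 2 mice lie far from wild-type mice 3 and 4 for acute phase, immediate early and glucocorticoid genes. For macrophage markers and PPARA targets they lie close to wild-type mice 3 and 4. All 4 wild-type mice lie on 1 side of the homozygous mice for those 2 lists, and also for acute phase and immediate early genes, among others.

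Of 15 cytoskeleton genes 3 fell and 14 were below 0, with a median of -0.23 that was -0.38 without wild-type mice 1 and 2. Background shares were 0.535% of all tested probes that fell and 47.0% of all tested genes below 0. Tubb2b, a beta-tubulin, read 7.96, 8.67, 7.80 and 8.53 in homozygous mice 1 to 4, against 10.34, 10.16, 9.36 and 10.07 in wild-type mice 1 to 4. The groups did not overlap, and Tubb2b fell by 1.74 (SE 0.25, adjusted p = 0.0288), or was at -1.47 without wild-type mice 1 and 2 (adjusted p = 0.0878). Tubb4b, another beta-tubulin, fell by 0.89 (SE 0.15, adjusted p = 0.0442) and Dynll1, a dynein light chain, by 1.68 (SE 0.31, adjusted p = 0.0453). Tubulin genes are alike in sequence, so a probe may read more than 1 of them. Krt8, a keratin of hepatocytes, fell by 0.83 (SE 0.15, adjusted p = 0.0453), and Ppl, which links keratin filaments to junctions, by 1.12 (SE 0.21, adjusted p = 0.049) on 1 of its 2 probes, with the other at 0.02.

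Of 10 proliferation genes 1 fell and 9 were below 0, with a median of -0.16, or -0.21 without wild-type mice 1 and 2. Mcm6, a subunit of the replicative helicase, fell on 2 probes by 0.65 (SE 0.11, adjusted p = 0.0421) and 0.85 (SE 0.16, adjusted p = 0.0453), with its brightest probe at -0.66 (adjusted p = 0.105). Uhrf1, which keeps DNA methylation through replication, read 4.39, 4.39, 4.41 and 4.35 in homozygous mice 1 to 4, against 5.46, 5.22, 4.93 and 5.44 in wild-type mice 1 to 4. It was detected on 0 homozygous and 4 wild-type arrays and was at least 1.50-fold lower (adjusted p = 0.0288). Ctps, which makes CTP for nucleic acids and phospholipids, fell by 1.20 (SE 0.20, adjusted p = 0.0421) on 1 of its 3 probes, with the others at -1.01 and -0.38.

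Within 10 Mb of Pts on chromosome 9, 129 probes were tested and 19 passed (14.7%), 4 that rose and 15 that fell, against 89 of the other 11826 (0.753%). Genes close to a knocked-in allele are inherited with it, and whether their sequence differed between the groups was not tested. Tmem25, a membrane protein of the immunoglobulin superfamily, read 4.20, 4.20, 4.29 and 4.50 in homozygous mice 1 to 4, against 8.75, 8.27, 10.79 and 10.60 in wild-type mice 1 to 4. It was detected on 0 homozygous arrays on this probe and was at least 30.5-fold lower (adjusted p = 0.00774), while its other 2 probes were at 0.50 and 0.40 and did not pass. Nxpe2 read 6.09, 6.63, 6.68 and 6.80 in homozygous mice, against 8.68, 8.34, 7.98 and 8.08 in wild-type mice, and fell by 1.72 (SE 0.19, adjusted p = 0.00854). Alg9, a mannosyltransferase of glycan assembly, fell on all 3 of its probes, by 1.22, 0.90 and 0.60 (adjusted p from 0.00854 to 0.0337). Against wild-type mice 3 and 4 alone, Tmem25 passed on the same probe (adjusted p = 6.05e-08), with Nxpe2 at -1.48 (adjusted p = 0.0277) and Alg9 on its first probe at -1.21 (adjusted p = 0.0354). On that probe Alg9 read 4.63, 4.51, 4.34 and 4.90 in homozygous mice, against 5.67, 5.98, 5.69 and 5.93 in wild-type mice.

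Nnmt, which methylates nicotinamide and so uses the methyl donor S-adenosylmethionine, spread widely within the homozygous group. Its dimmer probe read 8.13, 6.85, 5.67 and 4.71 in homozygous mice 1 to 4, against 11.44, 11.67, 10.16 and 9.78 in wild-type mice 1 to 4. Its brighter probe read 10.61, 8.87, 7.77 and 7.22 in homozygous mice, against 13.11, 13.38, 12.03 and 12.00 in wild-type mice. The homozygous mice kept the same order on both probes, with mouse 1 highest and mouse 4 lowest, and no homozygous mouse reached a wild-type mouse. Nnmt fell by 4.42 (SE 0.70, adjusted p = 0.0389) and fell by 4.01 (SE 0.66, adjusted p = 0.0421). Without wild-type mice 1 and 2, Nnmt was at -3.63 and -3.39 (adjusted p = 0.105 and 0.126). Of 16 genes of methyl group and NAD metabolism Nnmt alone passed, and the median was 0.19, or 0.07 without wild-type mice 1 and 2.

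The 4 probes that rose near Pts belonged to 4 genes. Fxyd6, a regulator of the sodium pump, read 6.76, 7.14, 7.13 and 7.04 in homozygous mice 1 to 4, against 5.31, 5.93, 5.34 and 5.39 in wild-type mice 1 to 4, and rose by 1.53 (SE 0.16, adjusted p = 0.00774), with 1.66 without wild-type mice 1 and 2 (adjusted p = 0.00251). Il18, an interleukin released by activated inflammasomes and the called gene closest to Pts, read 9.12, 8.86, 9.23 and 8.83 in homozygous mice, against 7.71, 7.50, 8.06 and 8.01 in wild-type mice. It rose by 1.19 (SE 0.15, adjusted p = 0.0199), against the direction of the macrophage markers, and by 0.98 without wild-type mice 1 and 2 (adjusted p = 0.0444). Sorl1, a sorting receptor, read 6.64, 6.75, 6.55 and 6.77 in homozygous mice, against 4.45, 6.03, 4.63 and 4.47 in wild-type mice. Wild-type mouse 2 alone of its group was near the homozygous level of Sorl1, and the probe was detected on 1 wild-type array; it rose by 1.79 (SE 0.32, adjusted p = 0.0453), and by 2.13 without wild-type mice 1 and 2 (adjusted p = 0.000179). Apoa4, given with the lipid genes, was the other.

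The rest of the 19 probes near Pts fell. H2ax, the histone variant that marks DNA breaks, read 5.86, 6.14, 5.71 and 6.33 in homozygous mice 1 to 4, against 7.74, 7.57, 7.05 and 6.83 in wild-type mice 1 to 4, and fell by 1.29 (SE 0.22, adjusted p = 0.0442). Atm, the kinase that answers such breaks, fell by 0.99 (SE 0.17, adjusted p = 0.0453) on 1 probe and was at least 1.16-fold lower on another, which no homozygous array detected. Trappc4, a subunit of a vesicle tethering complex, fell on both of its called probes, by 0.54 (SE 0.10) and 0.57 (SE 0.11). Mcam, Dnaja4 and Pkm, described elsewhere with their groups, also lie within 10 Mb of Pts.

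**Figure D4:**
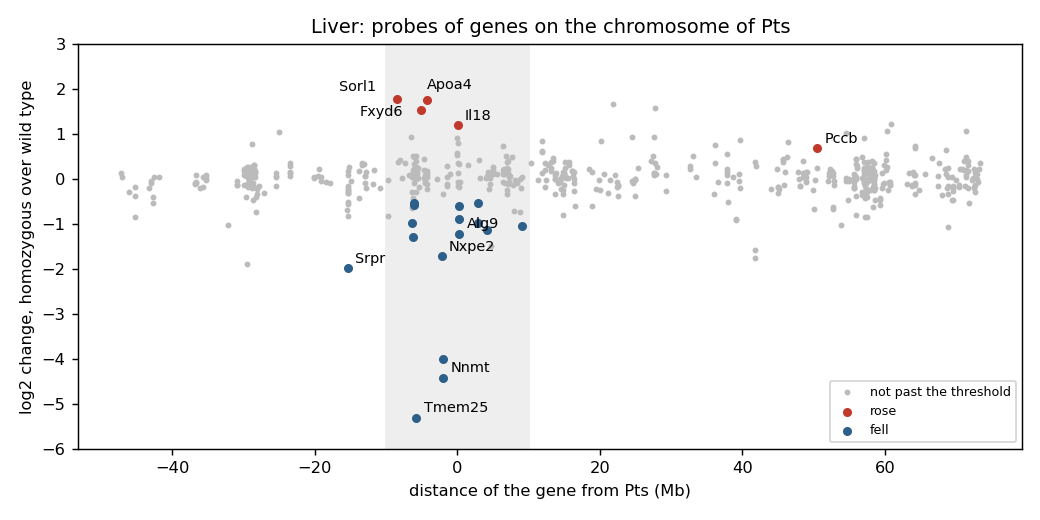
Change of each tested probe on chromosome 9 (log2, homozygous over wild type) against the distance of its gene from Pts in Mb; the shaded band is 10 Mb on each side of Pts. Of the 129 probes in the band 4 rose and 15 fell, with Tmem25 and Nnmt lowest.

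Several changes with a small adjusted p belonged to none of these groups. The transcript 9130409I23Rik read 6.78, 6.57, 6.87 and 6.71 in homozygous mice 1 to 4, against 5.03, 4.83, 5.28 and 5.36 in wild-type mice 1 to 4. It rose by 1.61 (SE 0.14, adjusted p = 0.00576), the smallest adjusted p of the 108. Syne4, a protein of the outer nuclear envelope, read 5.29, 5.12, 5.45 and 5.22 in homozygous mice, against 7.12, 7.57, 6.95 and 6.67 in wild-type mice, and fell by 1.81 (SE 0.18, adjusted p = 0.00774). Ifi27l2a, an interferon-induced gene, read 5.50, 6.02, 5.73 and 6.12 in homozygous mice, against 7.04, 7.30, 7.29 and 7.12 in wild-type mice. The wild-type livers were close together for Ifi27l2a, and it fell by 1.34 (SE 0.15, adjusted p = 0.00854). These 3 genes passed in all 8 fits that left out 1 array, and also against wild-type mice 3 and 4 alone, where 9130409I23Rik was at 1.42 and Syne4 at -1.54 (adjusted p = 0.00284 for both) and Ifi27l2a at -1.36 (adjusted p = 0.0285). Ifi27l2a was the only one of 15 interferon-responsive genes to pass, and the median of that list was 0.10, or -0.01 without wild-type mice 1 and 2.

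Among membrane proteins and signalling genes, changes ran both ways. Slc7a2, a carrier of arginine and lysine, read 10.28, 9.69, 9.80 and 9.76 in homozygous mice 1 to 4, against 8.63, 9.12, 8.75 and 8.98 in wild-type mice 1 to 4, and rose by 1.01 (SE 0.16, adjusted p = 0.0389). Slc17a8, a vesicular glutamate transporter, read 7.53, 8.38, 8.71 and 8.04 in homozygous mice, against 6.61, 5.69, 6.98 and 6.47 in wild-type mice, and rose by 1.73 (SE 0.31, adjusted p = 0.0453). Asic5, a cation channel that bile acids open, read 5.71, 5.33, 5.51 and 5.64 in homozygous mice, against 4.28, 4.32, 4.70 and 4.69 in wild-type mice. Asic5 was detected on 4 homozygous and 2 wild-type arrays and rose by 1.05 (SE 0.14, adjusted p = 0.0234). Efna1, an ephrin ligand, read 8.77, 8.24, 8.16 and 8.58 in homozygous mice, against 10.11, 10.22, 9.65 and 9.43 in wild-type mice, and fell by 1.42 (adjusted p = 0.0288). Its receptor family had 1 member called, Epha1, which rose by 0.68 (SE 0.13, adjusted p = 0.0453) on 1 of its 4 probes, with the lowest at 0.06.

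Other genes that rose with a small adjusted p had changes of under 1 unit. Smim19, a small membrane protein, read 9.68, 9.58, 9.49 and 9.62 in homozygous mice 1 to 4, against 8.54, 8.94, 8.80 and 8.97 in wild-type mice 1 to 4, and rose by 0.78 (SE 0.12, adjusted p = 0.0328). Rab43, a small GTPase of the secretory route, read 5.48, 5.40, 5.64 and 5.48 in homozygous mice, against 4.83, 4.82, 5.01 and 4.91 in wild-type mice. It rose on 2 of its 3 probes, by 0.61 (SE 0.10, adjusted p = 0.0392) and 0.70 (SE 0.12, adjusted p = 0.0453), and the third was at 0.69 (adjusted p = 0.0829). Eaf2, a factor of transcription elongation, read 5.11, 5.05, 5.17 and 5.06 in homozygous mice, against 4.58, 4.54, 4.52 and 4.41 in wild-type mice, and was detected on no wild-type array. It was at least 1.35-fold higher (adjusted p = 0.034). The groups did not overlap for any of these genes.

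Further called genes had varied roles. Srpr, a subunit of the receptor that docks ribosomes on the endoplasmic reticulum, read 7.78, 9.00, 7.49 and 7.63 in homozygous mice 1 to 4, against 10.38, 10.00, 9.65 and 9.81 in wild-type mice 1 to 4. Homozygous mouse 2 was nearest to the wild-type mice, and Srpr fell by 1.98 (SE 0.31, adjusted p = 0.0389). Slc17a9, a vesicular carrier of ATP, fell by 0.87 (SE 0.14), Tcirg1, a proton pump subunit, fell by 0.48 (SE 0.09), and Nek6, a kinase of mitosis, fell by 0.71 (SE 0.13). Fam13a, which has been tied to body fat distribution in humans, was detected on 4 homozygous and 2 wild-type arrays and rose by 1.17 (SE 0.21, adjusted p = 0.0453). Dhtkd1, a mitochondrial enzyme of lysine breakdown, rose by 0.87 (SE 0.15), Pccb, a subunit of propionyl-CoA carboxylase, rose by 0.68 (SE 0.13), and Kif1b, a kinesin motor, rose by 0.58 (SE 0.10) on 1 of its 6 probes, with the lowest at 0.11.

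Nos3, the endothelial nitric oxide synthase and an enzyme that needs tetrahydrobiopterin, read 5.15, 5.54, 5.11 and 5.48 in homozygous mice 1 to 4, against 6.46, 6.29, 5.85 and 6.66 in wild-type mice 1 to 4 on 1 of its 3 tested probes. On that probe it fell by 0.99 (SE 0.18, adjusted p = 0.0453). The other probes were at -0.65 (adjusted p = 0.14) and -0.60 (adjusted p = 0.18), so the direction was shared and the call was not. Of 14 endothelial markers tested 0 passed, and the median was 0.11, or -0.03 without wild-type mice 1 and 2. Tdo2, the tryptophan dioxygenase of liver, was at 0.73 and did not pass.

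Brain arrays allowed a test of whether the genotype effect differed between liver and brain. Of the 108 called probes, 77 were also tested in brain, and 55 of these had the same sign there. The 77 include probes near Pts, such as those of Tmem25 and Alg9. The share of same signs among all probes tested in both tissues was not computed, so the 55 have no background to be read against. In limma's test within brain, the Tmem25 probe was at -6.78 (adjusted p = 6.93e-09). The first Alg9 probe was at -1.32 (adjusted p = 0.00407), and no other called probe passed in brain. The genotype effect differed between liver and brain for 8 of 10492 probes tested in both (0.0762%). Fxyd6 was higher in homozygous liver but at 0.03 in brain, a difference of 1.50 (SE 0.20, adjusted p = 0.00766). Mfsd2a was at 1.40 in liver and -0.39 in brain, a difference of 1.78 (SE 0.31, adjusted p = 0.0411). Syne4 and Tubb2b differed by -1.67 (SE 0.24, adjusted p = 0.00925) and -1.78 (SE 0.29, adjusted p = 0.0248). With mouse, matched by replicate number, as a block the count was 3: Fxyd6 (adjusted p = 0.017), Mfsd2a (0.017) and Syne4 (0.0223). Ctps, Mcam, a cell adhesion molecule near Pts, Nos3 and 1 unnamed probe completed the 8. In liver Mcam fell by 0.99 (SE 0.16, adjusted p = 0.0418), and was at -1.09 without wild-type mice 1 and 2 (adjusted p = 0.0373).

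**Figure D5:**
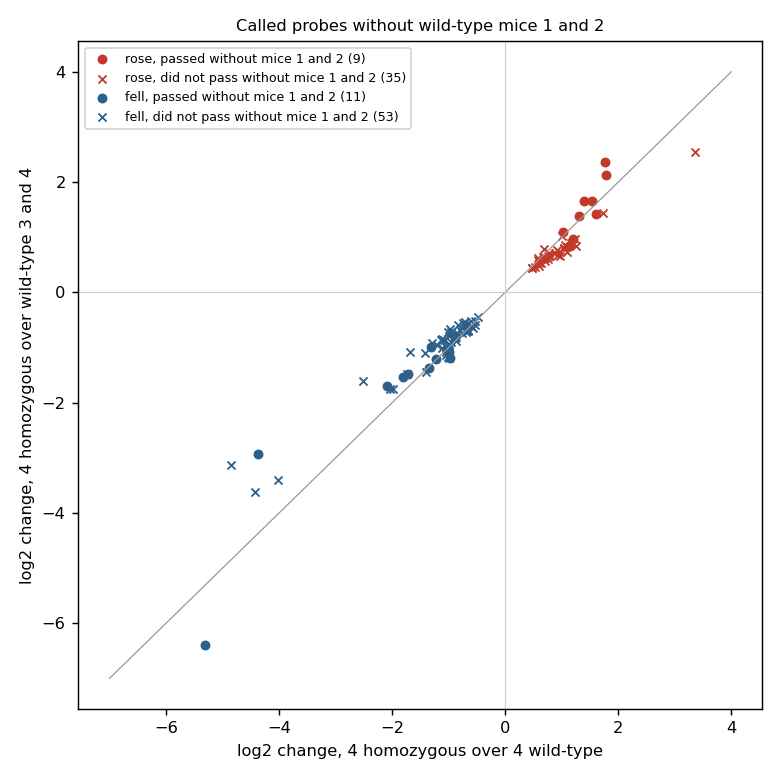
Change of each of the 108 called probes with all 8 livers (horizontal axis, log2, homozygous over wild type) against its change without wild-type mice 1 and 2 (vertical axis); circles mark probes that also passed in that second fit and crosses those that did not. All 108 points keep their sign, which was fixed in advance because the groups overlap for none of them, and 20 passed in both fits.

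Where a called gene had more than 1 tested probe, the probes mostly shared a sign. Of the called genes, 22 had several tested probes and 72 had 1. For 20 of the 22 all probes had the same sign, and for 4 of the 22 every probe was called. Tmem25 and Ppl were the genes whose probes disagreed in sign. Calls of Slc7a2, Mcam and Pccb rested on 1 probe each, with a further probe at 0.31 for Slc7a2, -0.29 for Mcam and 0.23 for Pccb.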

How the data were processed

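RNA of 16 samples of liver and brain was measured on single-colour Illumina bead arrays, and the 8 liver arrays were used here, with brain for 1 test. The main deposited table held unnormalized intensity values, summarized over the beads of a probe, each with a detection p-value, which is small above the negative control beads. Normalized intensity values, also deposited by the authors, served as an alternative. GenomeStudio 2011.1 was named by the submitters' processing notes without settings. Samples were grouped by title, and a mouse is 1 replicate.

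Signals were background-corrected with nec of limma 3.58.1 in R 4.3.3 (offset 16), quantile-normalized within liver and put on the log2 scale. Groups were compared with lmFit and eBayes of limma and Benjamini-Hochberg adjustment over all 11955 tested probes. SE is that of the fit, with n = 4 mice per group, whose number limits the precision. Of 25697 probes, 23978 carried 1 symbol, 1719 none and 0 several, and 23963 matched RefSeq genes of GRCm38.p6. A probe detected on none of a group's arrays and past the threshold has its fold as a bound, against the lowest detected signal of each array. The liver and brain effects were compared over the 10492 probes tested in both, and the script was tested on simulated data.

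The members and the 50 gene lists, 40 of pathways and 10 of cell type markers, were chosen with earlier results of these data known. Values in every mouse are given for the 12 genes with the smallest adjusted p in each direction and the 4 with the largest change. List members named are those called and up to 3 others with the largest test statistic, and further genes were named after their values were seen. No 2 arrays held the same values. No chip or hybridization batch is given in the labels.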

Additional observations from a re-analysis of the deposited data

Results flagged for a closer look

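In 20 of the 448 groups of 4 mice examined, 1 liver stood apart from the other 3 by Dixon's test, and chance gives about 1 in 20 groups. Wild-type mouse 3 was the low one for Fabp5 (5.85), Alg9 (7.27), Emilin2, an extracellular matrix protein (5.02), Arntl (5.86), the isoleucyl-tRNA synthetase Iars (8.37) and 1 unnamed probe (9.89), and the high one for Selenbp2, a selenium-binding protein (11.79). Wild-type mouse 2 was high for Fxyd6 (5.93), Sorl1 (6.03) and the urea cycle enzyme Otc (7.93), and wild-type mouse 1 was low for Slc27a5, the bile acid ligase (12.20). Among homozygous mice, mouse 3 was high for Rgs16 (11.07), and mouse 2 was low for Slco1a4 (7.83) and the adaptor Sla (4.50) and high for Wfdc17 (6.11). Homozygous mouse 4 was low for Hk2 (4.75), the immediate early gene Egr1 (6.91) and the dicarboxylate carrier Slc13a3 (6.08). Homozygous mouse 1 was high for Trappc4 (10.07) and low for the proteoglycan gene Lum (6.02).

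The genotype effect in liver minus that in brain passed limma's test for 8 probes. It was positive for Fxyd6 (1.50), Mfsd2a (1.78) and 1 unnamed probe (1.49), and negative for Syne4 (-1.67), Ctps (-1.29), Mcam (-1.27), Nos3 (-1.29) and Tubb2b (-1.78).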

How the results depend on the processing

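The count of 108 called probes (44 rose, 64 fell) was 120 with a background offset of 50, 101 with scaling to the 75th percentile and 117 with the authors' values. It was 78 without background subtraction (39 rose, 39 fell), 811 with all 16 arrays in 1 fit (395 and 416), 30 with probes detected on all 8 arrays (14 and 16), 35 without a detection filter (17 and 18), 149 with trend and robust variance (67 and 82) and 2931 with array weights (1584 and 1347). With the replicate block it was 32 (11 and 21). Same-numbered mice deviated with a correlation between -0.04 and -0.002. The highest correlation of any homozygous mouse with any wild-type mouse was 0.06, so this measure cannot decide whether the numbers pair animals. Leaving out 1 array gave 9 to 944 calls, 3 to 497 that rose and 6 to 447 that fell. Without wild-type mice 1 and 2 there were 23 (9 and 14). The test of liver minus brain gave 8, or 3 with mouse as a block, 0 to 75 with 1 mouse left out in both tissues, and 1 without wild-type mice 1 and 2. The brighter Pts probe passed without background subtraction (0.50), with an offset of 50 (0.55), with the authors' values (0.43), with all 16 arrays (0.53), with trend and robust variance (0.58) and with array weights (0.64), and read 0.49 to 0.65 with 1 array left out. The dimmer probe passed with all 16 arrays (0.84) and array weights (0.98), and read 0.71 to 1.01 with 1 array left out. Both probes passed without wild-type mouse 3 (adjusted p = 0.0307 for the brighter and 0.027 for the dimmer), and the brighter without wild-type mouse 4 (0.0459). Some genes that were not called changed sign. Ttr was at 0.0390 with the authors' values, 0.0357 with array weights and -0.0412 to 0.0329 with 1 array left out. Cela1, an elastase, ran from -0.0152 to 0.633 and Cyp17a1, a steroid hydroxylase, from -0.515 to 0.108 with 1 array left out. Leaving out both wild-type mice 1 and 2 put Cela1 at -0.40, Cyp17a1 at 0.15, Hnf4a, a hepatocyte transcription factor, at 0.0176 and Car3, a carbonic anhydrase, at -0.15. The causes were not tested.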

Other observations

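Other gene groups had few or no called members in homozygous livers. Of 15 genes of ribosome assembly 0 passed and 13 had a change below 0, with a median of -0.38, or -0.18 without wild-type mice 1 and 2, and with the small nucleolar RNP protein Nop58 at -1.02. Of 16 tRNA synthetases 0 passed and 14 were below 0, with a median of -0.14. The 28 tested proteasome subunits had a median of -0.07 and 0 calls. Of 14 genes of the urea cycle and amino acid nitrogen, Ctps fell and 10 were above 0, with the argininosuccinate synthase Ass1 at 0.75 and the lyase Asl at 0.76, neither of which passed. The 12 genes of insulin and growth hormone signalling had a median of -0.01 and 0 calls, with Socs2, an inhibitor of growth hormone signalling, at -1.62 and the insulin-like growth factor Igf1 at 0.00. Of 10 male-biased liver genes 0 passed, and their median was 0.06.

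Some large changes missed the threshold. Krt23, a keratin listed with bile duct markers, read 9.87, 7.88, 8.51 and 8.29 in homozygous mice 1 to 4, against 5.01, 4.88, 7.01 and 6.42 in wild-type mice 1 to 4. Its change was 2.81 (SE 0.55, adjusted p = 0.0507), or 1.92 against wild-type mice 3 and 4 alone, while the other bile duct markers tested, Sox9 and Krt7, were at -0.70 and -0.28. Pltp, a phospholipid transfer protein of plasma, was at 1.12 (SE 0.22, adjusted p = 0.0507) and 1.25 (SE 0.30, adjusted p = 0.078) on its 2 probes. The 9 periportal and 12 pericentral genes, which mark the ends of the liver lobule, had 0 calls and medians of 0.20 and -0.04.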
